A study of Mus musculus with 35 samples.

Results

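The hippocampus of normal adult mice was compared between 9 and 4 months of age. Members were the bulk RNA-seq libraries labelled WT, 5 at 9 months and 6 at 4 months, which are 11 of the 21 bulk libraries and of the 35 samples of the series. WT here means C57BL/6 mice without the PS19 transgene, which expresses mutant human tau from the mouse prion promoter and is carried by the other 10 bulk libraries (PS19, 4 at 9 months and 6 at 4 months). No agent, deletion or other allele is given for the WT animals, and the labels give neither their sex nor a batch or date of dissection or sequencing, so age and any such batch cannot be told apart. The labels do not say that each library is 1 animal, so p-values measure the spread between libraries. RNA came from whole dissected hippocampus, in which fewer cells of a type and less RNA per cell cannot be told apart. Reads counted per gene summed to 11989895 to 17182605 in the 9-month and 11662078 to 15688412 in the 4-month libraries. Markers of the hippocampal fields were present in all 11 libraries, with summed levels of 437 to 559 counts per 1000000 counts of a library (CPM) for dentate granule neurons, 488 to 675 for CA1 and 343 to 478 for CA2 and CA3 neurons.

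Mice of 4 months are young adults and mice of 9 months are mature adults, well short of old age. Over this span the hippocampus is known to make fewer new granule neurons in the dentate gyrus, to go on adding myelin from oligodendrocyte precursors, and to show the first signs of raised astrocyte and microglia activity genes that mark aged brain. The choroid plexus, a secreting epithelium in the ventricle beside the hippocampus, makes transthyretin (Ttr) at a very high level, and the amount of it that stays on a dissected hippocampus varies. Genes of neuronal activity, interferon response and the daily clock can change within hours, so they record the state of a single animal as well as its age.

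Several libraries differed from the others in the level of some groups of genes, and these are described first because they bear on the gene values. Values are CPM on the normalized library size, with n = 5 libraries at 9 months and n = 6 at 4 months throughout. Ttr stood at 4038, 3978, 608, 4627 and 4550.2 CPM in replicates 1 to 5 of 9 months, and its lowest, median and highest values at 4 months were 25.1, 2822 and 5804 CPM. A choroid plexus score, the mean log2 CPM of 19 choroid plexus genes, was 3.29 in replicate 3 of 9 months, 3.02 in replicate 1 and 0.81 in replicate 3 of 4 months, and 4.90 to 5.88 in the other 8 libraries. The summed level of the 19 genes ranged from 816 to 5607 CPM at 9 months and from 81.2 to 6906 CPM at 4 months.

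The remaining libraries that stood apart were noticed after their values were seen. Replicate 1 of 9 months held 1059 counts of Gh and 637 of Prl, the pituitary hormones growth hormone and prolactin, against 0 to 105 and 0 to 35 counts in the other 10 libraries. The same library held 80 counts of Rbp3, 105 of Tph1 and 21 of Crx, genes of the pineal gland and retina, and replicate 3 of 9 months held 41, 55 and 5, while the other 9 libraries had at most 4, 11 and 1. Sag, another gene of both tissues, was mildly higher there, at 41 and 48 counts against 15 to 27, and Aanat, the pineal enzyme of melatonin synthesis, was not, at 8 and 3 counts against 3 to 11. Chat and Lhx8, genes of cholinergic neurons such as those of the septum, reached 86 and 63 counts in replicate 1 and 50 and 44 in replicate 3 of 9 months, and 45 and 31 in replicate 2 of 4 months. Replicate 5 of 9 months stood apart by genes of neuronal activity, with 519.6 CPM of Npas4 against 15.6 to 19.2 CPM in the other 4 libraries of that age. Replicate 4 of 4 months stood apart by interferon genes, with 7.15 CPM of Ifi44 against 0.754 to 2.61 CPM in the other 5. Replicate 3 of 9 months also had 58.6 CPM of Sox11, a gene of new neurons, against 13.01 to 21.3 CPM elsewhere, and 38.6 CPM of the keratin gene Krt2 against 4.82 to 12.98 CPM. The part of these materials in the other results was not tested beyond the values without such libraries that are given below.

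**Figure D1:**
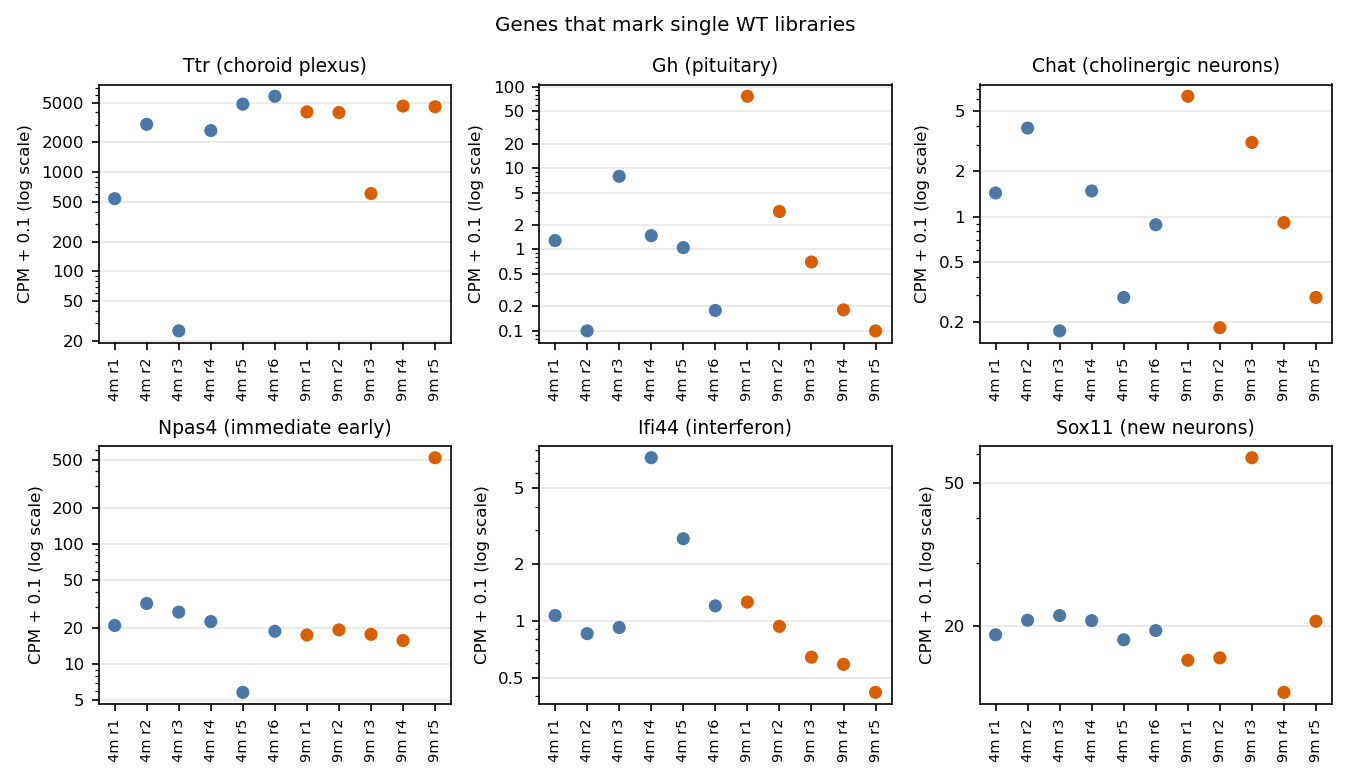
Levels of 6 genes in each WT library (CPM + 0.1, log axis; 4m and 9m are the ages, r the replicate; blue 4 months, orange 9 months). Ttr falls to 25.1 CPM in 1 library of 4 months, and Npas4, Ifi44 and Sox11 are each highest in a single library, while Gh is highest in 1 library of 9 months and raised in 1 of 4 months.

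Tested across all genes, few or no genes passed an adjusted threshold. With this number of libraries that does not show that the difference was small. Of 16133 genes, none passed an adjusted p under 0.05 in edgeR (0%), and the smallest adjusted p was 0.0773. At an unadjusted p under 0.05, 1802 genes (11.2%) differed, 875 higher (5.42%) and 927 lower (5.75%) at 9 months, which is the background for the counts below. With no difference, about 5% of genes would lie under that p. In 81 genes (0.502%) every 9-month library lay above every 4-month library and in 108 (0.669%) every one lay below. With the choroid plexus score as a covariate, again no gene (0%) passed, and 1815 (11.3%) had an unadjusted p under 0.05. DESeq2 on the same counts called 76 of 16112 genes (0.472%), 40 higher (0.248%) and 36 lower (0.223%). The higher ones included Rbp3, Krt2 and Ptgs2, each highest in a library that stood apart. Leaving out replicate 6 of 4 months raised the edgeR count from 0 to 20. The words higher and lower below describe means that did not pass the edgeR test. A difference, or a lone value in parentheses, is a log2 fold change, 9 minus 4 months, and paired means ± SD give 9 months first. Coordinates are on mm10.

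The 12 genes with the smallest p in each direction set the scale of the comparison: apart from Fbxw15 their log2 fold changes lay between -0.497 and 0.65, and in 16 of the 24 the ages did not overlap, as in 1.17% of all genes. They were chosen on this contrast, so their values are a description. Ehhadh (ENSMUSG00000022853, chromosome 16, 21761287 to 21787807; it overlaps Gm24898), an enzyme of fatty acid breakdown in peroxisomes, stood at 4.76, 5.83, 5.18, 5.94 and 6.43 CPM at 9 months. At 4 months its lowest, median and highest values were 2.93, 3.47 and 4.70 CPM, so every 9-month library was above every 4-month library. Its log2 fold change was 0.65 (SE 0.13, edgeR p 4.85e-05, adjusted p 0.0773). Zcchc2 (ENSMUSG00000038866, chromosome 1, 105990406 to 106034074), a zinc finger gene, had 27.5, 28.7, 29.4, 30.1 and 29.2 CPM at 9 months and 33.7, 36.3 and 42.0 CPM as lowest, median and highest at 4 months, with no overlap. Its log2 fold change was -0.35 (SE 0.065, edgeR p 1.83e-05, adjusted p 0.0773). Lasp1 (ENSMUSG00000038366, chromosome 11, 97799000 to 97838764), an actin-binding protein of the synapse and of cell edges, averaged 108 ± 6.52 CPM (SD) at 9 months and 128 ± 4.80 CPM at 4 months, again without overlap, at -0.25 (SE 0.047, edgeR p 2.12e-05, adjusted p 0.0773).

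Others of the 24 have various roles. Rap2a, a small GTPase, and Crkl, an adaptor of kinase signalling, were lower at 9 months by log2 fold changes of -0.22 and -0.29, and March9, a ubiquitin ligase of membrane proteins, by -0.41. Tlnrd1 (-0.38), Prrg3 (-0.31), Ptcd1 (-0.33), Tjap1 (-0.37) and Ccdc117 (-0.497) were lower with no overlap between ages. Ptcd1, which acts on mitochondrial RNA, overlaps Bud31, and counting ignored strand. Among the higher genes, Plcl1, a relative of phospholipase C that acts on GABA receptor traffic, averaged 52.2 ± 4.28 and 39.8 ± 5.36 CPM at 9 and 4 months. Its difference of 0.39 went up to 0.47 without replicate 6 of 4 months, whose 49.9 CPM was the highest of that age, and down to 0.30 without the libraries of low choroid plexus score. Cflar, an inhibitor of cell death by caspase 8, had 36.1, 38.5, 43.9, 34.3 and 33.0 CPM at 9 months against 23.4, 28.4 and 31.8 CPM at 4 months, without overlap. Sp2 (0.38), a transcription factor, Ddx59 (0.495), an RNA helicase, and Peak1 (0.35), a regulator of the cytoskeleton, were higher too. Scg2, a precursor of secreted neuropeptides, averaged 231 ± 41.1 and 172 ± 20.1 CPM, and Mex3b, an RNA-binding protein, 25.9 ± 5.25 and 17.5 ± 2.92 CPM. Both had their highest value in replicate 5 of 9 months (287 and 35.1 CPM), the library that stood apart by activity genes. The largest fold change of the 24 was that of Fbxw15, an F-box protein gene at low level (2.74, 3.08, 2.11, 2.03 and 1.46 CPM at 9 months and 0.519, 0.787 and 1.25 CPM at 4 months), at 1.43.

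Astrocytes, which clear glutamate and ions and raise the filament gene Gfap when they react to damage or age, had higher Gfap at 9 months in every library, while their other genes went both ways. Gfap (ENSMUSG00000020932, chromosome 11, 102887336 to 102900912; it overlaps Gm26668) stood at 457, 519, 620.3, 439 and 534 CPM in replicates 1 to 5 of 9 months and at 363, 383 and 423 CPM as lowest, median and highest of 4 months. Every library of 9 months lay above every library of 4 months. The log2 fold change was 0.41 (SE 0.11, edgeR p 0.00143, adjusted p 0.176), 0.43 with the choroid plexus score in the model, and the DESeq2 adjusted p was 0.0494. Without replicate 3 of 9 months it was 0.34. Without replicates 3 and 5 of 9 months and replicate 4 of 4 months it was 0.28 (edgeR p 0.0452). Serpina3n, a secreted protease inhibitor of reactive astrocytes, had 52.8, 51.5, 89.4, 55.1 and 72.9 CPM at 9 months and 39.1, 41.2 and 54.5 CPM at 4 months. The ages overlapped, replicate 3 of 9 months was the highest, and the log2 fold change was 0.54 (SE 0.17, edgeR p 0.00414, adjusted p 0.227). Timp1, an inhibitor of matrix proteases that overlaps Syn1, had 1.08, 1.000, 0.963, 0.569 and 0.573 CPM at 9 months and 0.157, 0.432 and 0.569 CPM at 4 months, close to the limit of detection. Lcn2, an iron-binding protein of strongly reactive astrocytes, was found mainly in replicates 1 and 3 of 9 months (1.37 and 2.05 CPM), the 2 libraries with the highest Rbp3, Tph1 and Crx, and at most at 0.333 CPM in the others.

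Of 15 reactive astrocyte genes tested, 10 were higher and 5 lower at 9 months, with 5 higher and none lower at an unadjusted p under 0.05. The fifth, beside Gfap, Serpina3n, Timp1 and Lcn2, was Cd109. Their median log2 fold change was 0.12, against 0.0046 over all genes. It was 0.19 without 3 libraries that stood apart (replicates 3 and 5 of 9 months and replicate 4 of 4 months). No measure ranked these 3 as standing apart most, and replicate 1 of 9 months, with its pituitary genes, was kept. Below, the 3 libraries that stood apart are these. Without the libraries of low choroid plexus score the median was 0.00069. Leaving out replicate 3 of 9 months alone gave 0.077, and leaving out replicate 5 alone gave 0.25. C4b, a complement gene of this list, averaged 92.3 ± 18.9 and 71.9 ± 27.3 CPM, and without replicate 4 of 4 months (126 CPM) its difference of 0.36 became 0.60. It was 0.26 without replicate 5 of 9 months and 0.21 without the libraries of low choroid plexus score.

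Genes of resting astrocytes went in both directions. S1pr1 (ENSMUSG00000045092, chromosome 3, 115710433 to 115715072), a receptor for sphingosine 1-phosphate on astrocytes and vessels, had 126, 122, 109, 109 and 129.6 CPM at 9 months. The lowest, median and highest 4-month values were 140.4, 143 and 154 CPM, so all libraries of 9 months were below those of 4 months, and the log2 fold change was -0.29 (SE 0.053, edgeR p 2.08e-05, adjusted p 0.0773). Gja1, the gap junction protein that couples astrocytes, averaged 248 ± 12.2 and 272 ± 7.13 CPM at 9 and 4 months (-0.13, SE 0.044, edgeR p 0.00614, adjusted p 0.248). Sox9, a transcription factor of astrocyte identity, averaged 47.1 ± 6.47 and 37.0 ± 9.65 CPM, with 56.2 CPM in replicate 6 of 4 months, well above the 29.3 to 35.7 CPM of the other 5 libraries. Its log2 fold change was 0.35, and 0.51 without that library. Replicate 5 of 9 months was high too at 58.5 CPM, and without it the difference was 0.26. Of the 10 astrocyte genes, 6 were higher and 4 lower, with a median of 0.041.

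In the oligodendrocyte lineage, which runs from precursors over premyelinating cells to myelin-forming cells, the premyelinating marker Gpr17 was lower at 9 months while genes of mature myelin tended to be higher. Gpr17 (ENSMUSG00000052229, chromosome 18, 31942997 to 31949636; it overlaps Lims2), a receptor that holds cells before they mature, had 47.2, 53.3, 43.6, 41.0 and 41.4 CPM at 9 months and 53.3, 58.6 and 71.8 CPM as lowest, median and highest at 4 months. Only replicate 2 of 9 months reached the lowest library of 4 months, and the log2 fold change was -0.41 (SE 0.084, edgeR p 8.42e-05, adjusted p 0.0841). Itpr2 (ENSMUSG00000030287, chromosome 6, 146108299 to 146502223; it overlaps Gm15720 and 2 other predicted genes), a calcium channel of the endoplasmic reticulum found in astrocytes and in newly formed oligodendrocytes, went the other way. It had 39.2, 37.7, 40.1, 35.5 and 38.4 CPM at 9 months and 28.7, 30.4 and 32.8 CPM at 4 months, without overlap, with a log2 fold change of 0.32 (SE 0.062, edgeR p 3.08e-05, adjusted p 0.0773). Of the 9 premyelinating genes, 7 were higher and 2 lower, with a median of 0.022, so these 2 genes at opposite ends did not stand for the list. The precursor gene Pdgfra, the receptor for platelet-derived growth factor, averaged 79.2 ± 2.90 and 71.8 ± 3.94 CPM, a difference of 0.14.

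Of 22 genes of myelin and mature oligodendrocytes, 16 were higher and 6 lower at 9 months, and 6 were higher and none lower at an unadjusted p under 0.05. They were Hapln2, Anln, Il33, Klk6, Trf and Gjb1. Hapln2, a link protein of the matrix at the node of Ranvier, had 31.2, 30.4, 32.7, 26.3 and 22.1 CPM at 9 months and 18.5, 21.2 and 22.4 CPM at 4 months. Replicate 5 of 9 months overlapped the 4-month libraries, and the log2 fold change was 0.46 (SE 0.10, edgeR p 0.000185, adjusted p 0.114). Anln (ENSMUSG00000036777, chromosome 9, 22332012 to 22389188; it overlaps Gm48646), which holds septin filaments in myelin, had 67.7, 67.7, 62.0, 55.5 and 61.4 CPM at 9 months and 42.5, 45.1 and 53.0 CPM at 4 months, without overlap, at 0.43 (SE 0.11, edgeR p 0.000524, adjusted p 0.154). Il33, a nuclear cytokine of oligodendrocytes, averaged 53.1 ± 6.03 and 41.6 ± 5.92 CPM. The abundant structural gene Mbp, which encodes myelin basic protein, averaged 2295 ± 211 and 2140.4 ± 118 CPM, and its difference of 0.10 (SE 0.077, edgeR p 0.206, adjusted p 0.672) was within the spread. The list median was 0.090, and it stayed between 0.04 and 0.16 over all alternatives. Summed over the list, replicate 4 of 9 months was the lowest of the WT libraries at 6012 CPM. The others of that age had 7171 to 8378 CPM, and those of 4 months 6400 to 7511 CPM.

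Microglia, the resident macrophages of the brain, had most of their homeostatic genes slightly higher at 9 months. Of 15 genes of homeostatic microglia, 13 were higher and 2 lower, with a median of 0.14 (between 0.10 and 0.20 over the alternatives). At an unadjusted p under 0.05, 2 were higher and 1 lower (Mef2c, which neurons express too). The mean log2 CPM of the list, from the mean of the WT libraries, was 0.015 to 0.14 at 9 months. At 4 months it was -0.14 to -0.0021. The summed levels overlapped, at 557 to 599 CPM at 9 months and 525 to 649 CPM at 4 months. P2ry13, a nucleotide receptor, had 12.4, 11.4, 10.4, 14.6 and 11.01 CPM at 9 months and 8.46, 8.89 and 11.04 CPM at 4 months, with overlap. Its log2 fold change was 0.35 (SE 0.095, edgeR p 0.00136, adjusted p 0.176), and that of P2ry12, the receptor that guides microglial processes to injury, was 0.22 (SE 0.075, edgeR p 0.00728, adjusted p 0.261). Both genes overlap Med12l. Among 24 genes of disease-associated microglia, 17 were higher and 7 lower, with a median of 0.048 (between 0.015 and 0.11 over the alternatives). Gpnmb, a glycoprotein of lipid-laden phagocytes, had 5.84, 3.42, 4.57, 4.23 and 10.1 CPM at 9 months, the highest in replicate 5, and 1.59, 3.00 and 4.30 CPM at 4 months (0.93, SE 0.34, edgeR p 0.0114, adjusted p 0.287). Without replicate 5 its difference was 0.61 (edgeR p 0.0797). Lgals3, which binds damaged lysosomes, averaged 2.47 ± 0.568 and 1.80 ± 0.621 CPM.

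**Figure D2:**
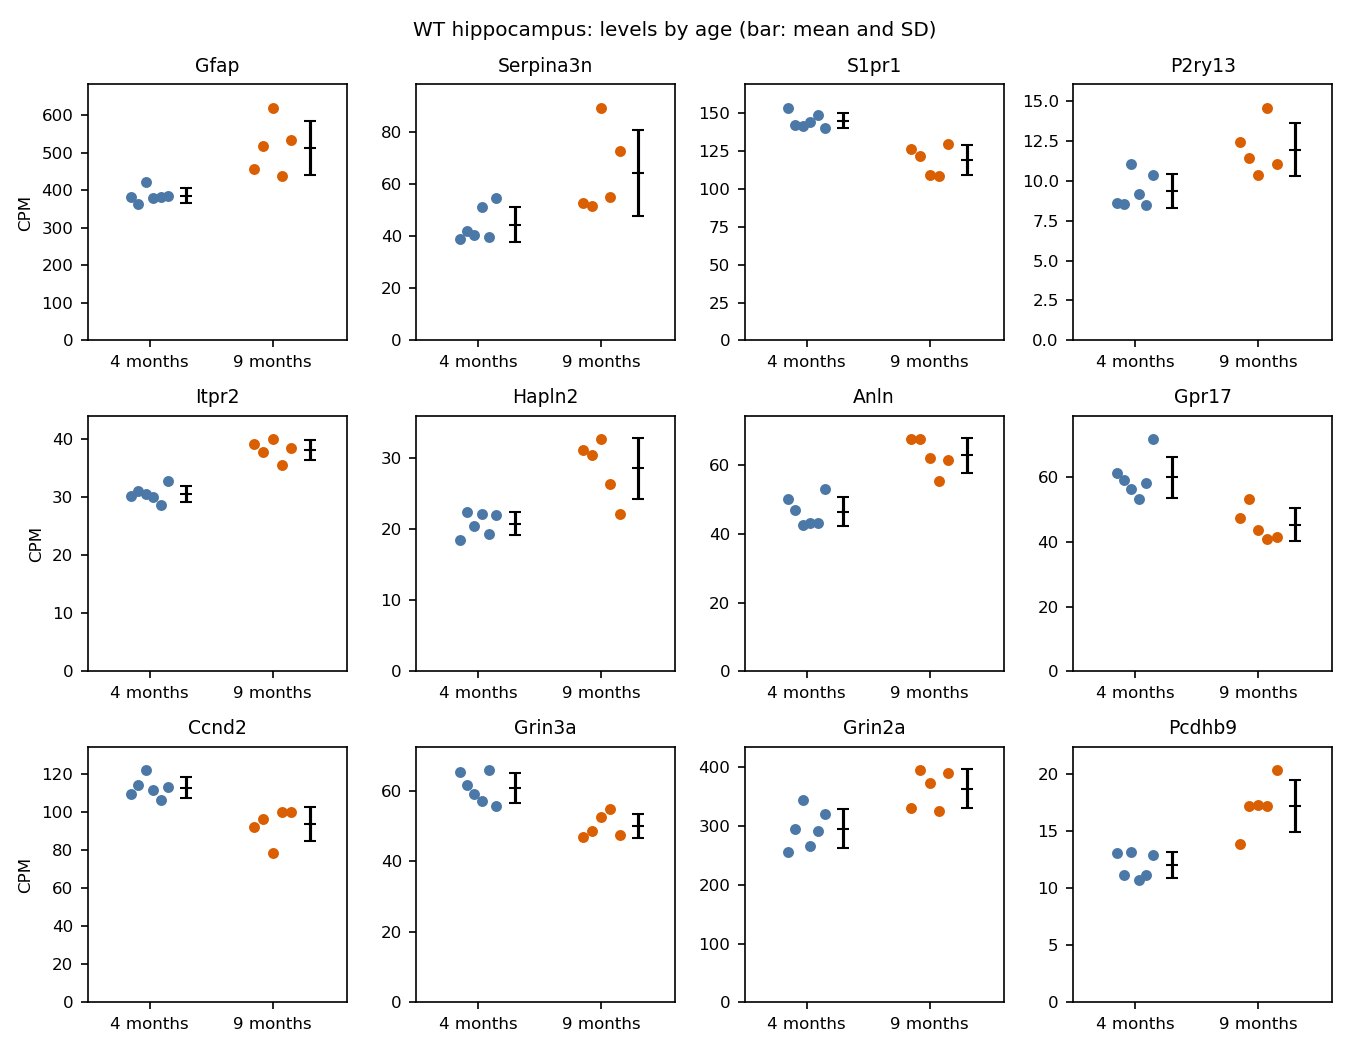
Levels of 12 genes of glia and neurons in the WT libraries (CPM on linear axes from 0; points are libraries, bars the mean and SD; 4 months n = 6, 9 months n = 5). The ages do not overlap in Gfap, S1pr1, Itpr2, Anln, Ccnd2, Grin3a and Pcdhb9.

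Genes listed for new granule neurons were mostly lower at 9 months, though not the classical marker. Of 14 tested genes of this list, 12 were lower and 2 higher, with a median of -0.17, and 4 were lower and none higher at an unadjusted p under 0.05. Ccnd2 (ENSMUSG00000000184, chromosome 6, 127125162 to 127152193; it overlaps 9330179D12Rik and Gm43126), the cyclin that dividing progenitors of the adult dentate gyrus need, had 92.3, 96.6, 78.8, 100.3 and 100.1 CPM at 9 months and 106, 113 and 122 CPM at 4 months. All 9-month libraries were below all 4-month libraries, at -0.27 (SE 0.084, edgeR p 0.00396, adjusted p 0.227). Stmn1, which frees microtubules in growing neurites, averaged 93.7 ± 9.32 and 119.9 ± 21.7 CPM (-0.36). Bhlhe22, a transcription factor of young excitatory neurons, averaged 67.9 ± 11.5 and 86.7 ± 14.2 CPM (-0.35), and Draxin, a guidance factor, 0.778 ± 0.272 and 1.15 ± 0.248 CPM (-0.56). Dcx, the microtubule protein used to count new neurons, stood at 25.7, 24.8, 25.4, 27.8 and 24.9 CPM at 9 months and 22.5, 24.5 and 33.1 CPM at 4 months. Its log2 fold change of -0.023 (SE 0.082, edgeR p 0.782, adjusted p 0.949) was within the spread, and it became 0.057 without replicate 1 of 4 months. Sox11 had the high value in replicate 3 of 9 months given above, and its difference of 0.34 became -0.27 without that library. The list's median lay between -0.23 and -0.15 over all alternatives. At 4 months its summed level was highest in replicate 1 (801 CPM) and lowest in replicate 6 (664 CPM). The same held for a list of neocortex genes (281 and 184 CPM). At 9 months the sums were 629 to 647 CPM for new neurons and 194 to 236 CPM for neocortex. The part of dissected neocortex, or of other cells that express these genes, was not tested.

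Genes of dividing cells gave no such pattern: 6 of 14 were higher and 8 lower, with a median of -0.026, and Mcm2, a helicase subunit of DNA replication, averaged 6.44 ± 1.36 and 4.73 ± 1.06 CPM (0.44, SE 0.15, edgeR p 0.00660, adjusted p 0.254). Mature granule neuron genes were 4 higher and 4 lower (median -0.0012). Their member Calb1, a calcium buffer, had 106, 109, 53.9, 104 and 66.6 CPM at 9 months against 98.8, 107 and 126 CPM at 4 months, low in replicates 3 and 5. Without the 3 libraries that stood apart its difference of -0.31 was -0.022. Genes of the neocortex, the tissue above the hippocampus, were lower in 6 of 6, with a median of -0.14, and led by Cux2 (28.02 ± 2.35 and 37.7 ± 10.8 CPM) and Tshz2 (30.4 ± 10.00 and 49.8 ± 21.1 CPM). Summed over the list they ranged from 194 to 236 CPM at 9 months and from 184 to 281 CPM at 4 months. The part of dissected neocortex in these values was not tested.

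Of 22 glutamate receptor genes, 12 were higher and 10 lower, with a median of 0.028, which was 0.0022 without replicate 3 of 9 months, 0.045 without replicate 1 and -0.023 without the 3 libraries that stood apart. Grin3a (ENSMUSG00000039579, chromosome 4, 49661611 to 49845744; it overlaps Gm12459 and Ppp3r2), the NMDA receptor subunit that is most abundant in juvenile brain, had 46.9, 48.5, 52.4, 54.8 and 47.5 CPM at 9 months and 55.5, 60.3 and 65.9 CPM at 4 months. The ages did not overlap, at -0.28 (SE 0.071, edgeR p 0.000629, adjusted p 0.159). Grin2a (ENSMUSG00000059003, chromosome 16, 9567898 to 9995560), the subunit of mature NMDA receptors, had 331, 396, 374, 326 and 391 CPM at 9 months and 256, 294 and 344 CPM at 4 months, with overlap, at 0.30 (SE 0.085, edgeR p 0.00212, adjusted p 0.197). Grik4, a kainate receptor subunit of CA3 neurons, averaged 77.3 ± 14.7 and 56.9 ± 8.98 CPM and was highest in replicates 3 and 5 of 9 months. Without the 3 libraries that stood apart its difference of 0.44 was 0.25. Among 14 GABA receptor genes, 7 were higher and 7 lower. Gabrb1, a subunit of GABA-A receptors that overlaps Gabra4, averaged 305 ± 35.6 and 249.99 ± 20.3 CPM (0.29, SE 0.070, edgeR p 0.000482, adjusted p 0.1500).

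The clustered protocadherins are cell surface proteins of 3 neighbouring gene clusters, from which each neuron chooses a few, and their genes share exons and overlap, so their counts are uncertain. Of 53 tested, 41 were higher and 12 lower, with a median of 0.11, and 6 were higher and 1 lower at an unadjusted p under 0.05. Pcdhb9, which overlaps 3 predicted genes, had 13.9, 17.2, 17.3, 17.2 and 20.4 CPM at 9 months and 10.7, 12.1 and 13.2 CPM at 4 months, without overlap, at 0.51 (SE 0.11, edgeR p 0.000119, adjusted p 0.101). Pcdhga2 had 9.59, 9.41, 9.63, 10.6 and 16.4 CPM at 9 months and 4.52, 7.15 and 7.63 CPM at 4 months, and Pcdhb2 averaged 5.10 ± 2.09 and 3.10 ± 0.896 CPM. Both were highest in replicate 5 of 9 months, the library with high activity genes. Pcdhgc4, a member expressed in most neurons, was lower (11.9 ± 1.12 and 14.8 ± 2.12 CPM) without overlap. Without the 3 libraries that stood apart the list turned: 21 were higher and 32 lower, with a median of -0.028. Leaving out replicate 3 or replicate 5 of 9 months alone gave medians of 0.069 and 0.040, while without the 3 libraries Pcdhb9 kept a difference of 0.38.

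Immediate early genes switch on within minutes of synaptic activity, many of them through the factor CREB, which binds promoters at sequences with the core TGACG. The promoters of Fos (chr12:85473640-85473939, + strand) and Nr4a3 (chr4:48045055-48045354, + strand) are shown because these genes behaved differently below. Sequences are from RefSeq on GRCm38.p6, 250 bases before to 50 bases after the RefSeq start, which can differ from the start in a gene's printed coordinates. Each TGACG on either strand is in capitals (CGTCA is the reverse strand).
Fos: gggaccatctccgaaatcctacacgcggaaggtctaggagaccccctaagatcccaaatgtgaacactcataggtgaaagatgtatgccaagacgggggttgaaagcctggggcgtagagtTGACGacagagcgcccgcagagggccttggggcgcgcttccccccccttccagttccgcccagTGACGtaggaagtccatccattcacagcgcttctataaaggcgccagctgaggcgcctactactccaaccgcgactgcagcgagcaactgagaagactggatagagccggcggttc
Nr4a3: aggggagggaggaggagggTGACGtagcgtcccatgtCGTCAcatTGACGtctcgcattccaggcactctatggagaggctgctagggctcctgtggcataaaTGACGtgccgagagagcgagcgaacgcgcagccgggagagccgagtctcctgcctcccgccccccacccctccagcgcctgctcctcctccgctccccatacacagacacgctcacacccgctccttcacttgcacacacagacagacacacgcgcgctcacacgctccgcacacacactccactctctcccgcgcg
Fos had 2 matches and Nr4a3 had 4. Of the 21 listed genes 17 had a promoter in the table, and 15 of these 17 (88.2%) held the core in at least 1 promoter. That is 17 of their 28 promoters (60.7%), against 6837 of all 32851 promoters (20.8%). A match describes the letters in this window only.

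Fos was low at 9 months in 4 libraries and very high in the fifth. Fos (ENSMUSG00000021250, chromosome 12, 85473890 to 85477273) stood at 24.8, 20.9, 27.9, 10.2 and 556 CPM in replicates 1 to 5 of 9 months and at 31.4, 43.2 and 60.3 CPM as lowest, median and highest of 4 months. Replicates 1 to 4 of 9 months were below every 4-month library, whereas replicate 5 was far above all. The log2 fold change was 1.56 (SE 0.68, edgeR p 0.0323, adjusted p 0.387), and without replicate 5 it was -1.05 (edgeR p 0.00212). Fosb, its close relative, had 11.5, 10.2, 27.9, 8.86 and 403 CPM at 9 months and 14.03, 23.4 and 27.6 CPM at 4 months, and its difference of 2.06 became -0.59 without replicate 5. Npas4, a transcription factor induced by calcium entry, had 17.4, 19.2, 17.6, 15.6 and 519.6 CPM at 9 months and 5.72, 21.7 and 31.8 CPM at 4 months, and 2.499 became -0.27. Ptgs2, the inducible cyclooxygenase, is not among the 21 listed genes and was picked after its values were seen. It had 29.8, 34.5, 61.0, 34.2 and 308 CPM at 9 months and 20.4, 26.6 and 32.1 CPM at 4 months. Its difference of 1.84 stayed positive without replicate 5, at 0.61 (edgeR p 0.00278).

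Nr4a3 (ENSMUSG00000028341, chromosome 4, 48045153 to 48086447), a nuclear receptor of the same response, was not high in replicate 5. It had 78.1, 97.5, 71.1, 81.6 and 92.3 CPM at 9 months and 99.6, 115 and 143 CPM at 4 months, all libraries of 9 months below all of 4 months. Its log2 fold change was -0.48 (SE 0.11, edgeR p 0.000240, adjusted p 0.114), the DESeq2 adjusted p was 0.0119, and without replicate 5 the difference was -0.52. Klf2, a flow- and activity-responsive factor, had 2.59, 5.83, 4.93, 2.52 and 5.60 CPM at 9 months and 5.19, 7.77 and 14.1 CPM at 4 months (-1.0, SE 0.29, edgeR p 0.00214, adjusted p 0.197). Bdnf, the neurotrophin induced by activity, averaged 46.9 ± 12.4 and 36.0 ± 3.86 CPM, with 65.2 CPM in replicate 3 of 9 months. Its difference of 0.39 was 0.069 without the 3 libraries that stood apart.

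The 21 immediate early genes were therefore counted with and without replicate 5 of 9 months. With it, 14 were higher and 7 lower (median 0.40), 6 higher and 4 lower at an unadjusted p under 0.05. Without it, 3 were higher and 18 lower (median -0.62), and 14 were lower and 1 higher at an unadjusted p under 0.05, where 4.98% of all genes were lower and 4.78% higher by that rule. None of the 21 passed an adjusted p under 0.05 in edgeR without it. That library was singled out by these very genes, so the counts without it are a description. Without the 3 libraries that stood apart, 20 of 21 were lower, 15 of them at an unadjusted p under 0.05, against 4.73% of all genes (3.57% were higher).

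Genes of the daily clock were lower in part. Per1 (ENSMUSG00000020893, chromosome 11, 69095217 to 69109960), a repressor of the clock that light, activity and glucocorticoids also induce, had 75.4, 75.2, 68.0, 71.9 and 111 CPM at 9 months and 91.1, 124 and 137 CPM at 4 months. Only replicate 5 of 9 months reached the 4-month range, the log2 fold change was -0.54 (SE 0.14, edgeR p 0.00116, adjusted p 0.176), and without that library it was -0.69. Per2 had 43.9, 34.3, 35.7, 42.1 and 35.1 CPM at 9 months and 38.4, 46.7 and 51.5 CPM at 4 months (-0.24, SE 0.096, edgeR p 0.0193, adjusted p 0.339). Nr1d1, the repressor REV-ERB alpha, which overlaps Thra, averaged 83.8 ± 6.36 and 97.2 ± 6.79 CPM (-0.22). Of 17 clock genes, 6 were higher and 11 lower, with a median of -0.074, and 5 were lower (Per1, Per2, Nr1d1, Hlf and Bhlhe40) and 1 higher (Bhlhe41) at an unadjusted p under 0.05. Without replicate 5 of 9 months the median was -0.13, with 3 lower and 2 higher at that p. Without the libraries of low choroid plexus score 8 were higher and 9 lower, with a median of -0.0013 and 2 lower and 1 higher at that p. The labels do not give the hour of dissection. Tsc22d3, a target of glucocorticoid hormone, had 58.7, 73.6, 58.0, 44.2 and 41.4 CPM at 9 months and 43.3, 80.03 and 86.4 CPM at 4 months (-0.42, SE 0.16, edgeR p 0.0132, adjusted p 0.302). Mt1, a metallothionein on the same list, was higher (163 ± 21.2 and 137 ± 13.5 CPM), and the 13 glucocorticoid targets were 6 higher and 7 lower.

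**Figure D3:**
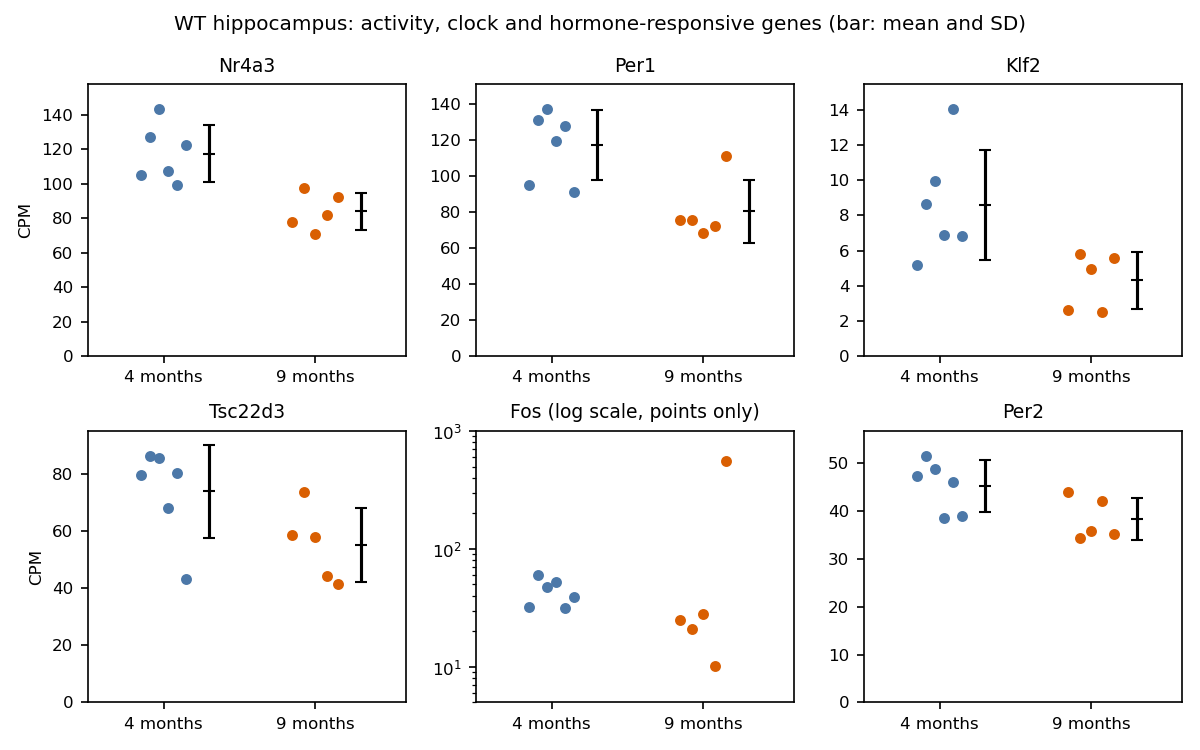
Levels of 6 genes of activity, the clock and glucocorticoid response in the WT libraries (CPM; linear axes from 0 with mean and SD as bars, except Fos on a log axis with points only; 4 months n = 6, 9 months n = 5). Nr4a3 does not overlap between the ages, and 1 library of 9 months holds 556 CPM of Fos.

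Interferon response genes, which cells switch on against viruses through promoter elements that repeat the letters GAAA, were lower at 9 months in every member tested. The motif searched was GAAA, any 2 bases and GAAA. Promoters of Ifit1 and Isg15 are shown because the same library of 4 months was highest in both genes: Ifit1 (chr19:34640639-34640938, + strand) and Isg15 (chr4:156200769-156201068, - strand), from RefSeq on GRCm38.p6 as above, with the motif on either strand in capitals (TTTC, any 2 bases and TTTC is the reverse strand). Of the 3 matches of Isg15, each overlaps the next.
Ifit1: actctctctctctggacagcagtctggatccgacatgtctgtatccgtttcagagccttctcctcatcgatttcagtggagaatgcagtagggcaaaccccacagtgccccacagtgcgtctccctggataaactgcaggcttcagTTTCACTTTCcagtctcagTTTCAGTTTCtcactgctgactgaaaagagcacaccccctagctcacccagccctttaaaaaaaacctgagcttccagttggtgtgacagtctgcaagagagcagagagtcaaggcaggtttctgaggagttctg
Isg15: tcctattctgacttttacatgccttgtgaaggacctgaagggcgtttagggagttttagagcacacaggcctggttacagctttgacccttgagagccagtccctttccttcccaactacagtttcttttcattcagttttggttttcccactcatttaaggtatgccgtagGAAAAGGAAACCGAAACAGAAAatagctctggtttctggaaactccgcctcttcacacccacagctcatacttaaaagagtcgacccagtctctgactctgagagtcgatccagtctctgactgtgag
Of the 21 listed genes 16 had a promoter in the table, and 11 of these (68.8%) held the motif, 11 of 18 promoters (61.1%), against 1131 of all 32851 promoters (3.44%).

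Of the 20 interferon genes tested, all 20 were lower, with a median log2 fold change of -0.68, and 4 were lower at an unadjusted p under 0.05. That number was 11 of 19 with WT libraries alone, 7 of 20 with DESeq2 and with the choroid plexus score in the model, and 9 of 20 (median -0.92) without the libraries of low score. In either direction 1615 of 15537, 1745 of 16112, 1815 of 16133 and 1407 of 15956 of all genes were under that p in these fits, in the same order. Ifit1 (ENSMUSG00000034459, chromosome 19, 34640871 to 34650009), which blocks foreign RNA, had 1.87, 2.83, 2.23, 3.09 and 1.40 CPM at 9 months and 2.26, 3.67 and 13.6 CPM at 4 months. Replicates 4 and 5 of 4 months were high at 13.6 and 7.70 CPM, and the others of that age lay at 2.26 to 4.00 CPM. The log2 fold change was -1.30 (SE 0.56, edgeR p 0.0312, adjusted p 0.383). Isg15, a ubiquitin-like modifier, had 1.30, 1.17, 1.32, 1.14 and 0.573 CPM at 9 months and 1.26, 1.96 and 4.06 CPM at 4 months (-0.98, SE 0.52, edgeR p 0.0738, adjusted p 0.506). Usp18, the protease that removes it (-1.43, SE 0.52, edgeR p 0.0120, adjusted p 0.292), Gbp3 (-1.19) and Ifi44 (-1.74) were likewise highest in replicate 4 of 4 months. Leaving it out gave -0.82 for Ifit1, -0.88 for Usp18, -0.74 for Gbp3 and -0.95 for Ifi44. Without that library, 17 of 19 interferon genes tested were lower, with a median of -0.35 and none at an unadjusted p under 0.05, where 5.49% of all genes were lower and 5.2% higher. Without the 3 libraries that stood apart, 16 of 20 were lower, with a median of -0.25. Replicate 4 of 4 months was singled out by these genes too.

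Genes of antigen presentation by MHC class I were highest in the same library. B2m, the light chain of MHC class I, had 67.3, 68.9, 60.6, 59.3 and 47.6 CPM at 9 months and 66.7, 71.4 and 139.9 CPM at 4 months, the last in replicate 4. Without it the difference of -0.44 was -0.22. H2-K1, a heavy chain, had 66.3 CPM there and 18.9 to 26.2 CPM in the other 4-month libraries, and its difference of -0.57 was -0.18 without it. Nlrc5, the activator of class I genes, averaged 1.19 ± 0.192 and 2.54 ± 1.91 CPM (-1.07, SE 0.41, edgeR p 0.0163, adjusted p 0.324), and its difference was -0.62 without that library (edgeR p 0.0992). The 14 genes of complement and MHC class I were 5 higher and 9 lower (median -0.18). Without replicate 4 of 4 months they were 6 higher and 8 lower (median -0.034), and without the 3 libraries that stood apart 8 higher and 6 lower (median 0.080). Leaving out replicate 3 of 9 months gave a median of -0.099. Cd74, the chain that guides MHC class II, had 9.01, 6.66, 4.27, 4.55 and 2.74 CPM at 9 months and 4.32, 9.48 and 11.8 CPM at 4 months, and 4 of 5 class II genes were lower (median -0.57, between -0.72 and -0.17 over the alternatives). The mean log2 CPM of the class II genes was high in replicates 4, 5 and 6 of 4 months. It stood there at 0.65, 0.41 and 0.56 from the mean of the WT libraries. The difference of Cd74 was -0.68, and -0.57 without replicate 4 of 4 months. It was -0.94 without replicate 1 of 9 months and -0.24 without the 3 libraries that stood apart.

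Genes of organelles and metabolism differed by little. Of 36 lysosomal genes, 31 were higher and 5 lower, against 51.5% higher over all genes. Their median was 0.053, between 0.022 and 0.088 over all alternatives and 0.028 with the choroid plexus score in the model. Their mean log2 CPM was lowest in the 3 WT libraries of low score. It stood there at -0.16, -0.080 and -0.076 from the mean of the WT libraries, against -0.055 to 0.091 in the others. The part of choroid plexus in these values was not tested. Npc1 (Gm15956 and Rmc1 overlap it), which exports cholesterol from lysosomes, had 78.9, 82.7, 77.8, 80.9 and 81.5 CPM at 9 months and 63.7, 72.5 and 75.1 CPM at 4 months, without overlap (0.17, SE 0.056, edgeR p 0.00620, adjusted p 0.249). The 18 genes of the V-ATPase, the lysosomal proton pump that the series is about, had a median of 0.0067, and none had an unadjusted p under 0.05. Atp6v1h averaged 153 ± 9.62 and 141 ± 12.3 CPM (0.12, SE 0.059, edgeR p 0.0582, adjusted p 0.472). Cytosolic ribosomal protein genes were lower in 73 of 76, with a median of -0.071 (between -0.092 and -0.030 over the alternatives), and their mean log2 CPM stood lowest in replicate 5 of 9 months, at -0.16 from the mean of the WT libraries against -0.032 to 0.020 in the other 4 of that age. Of these, Rps24 averaged 173 ± 9.45 and 187 ± 6.93 CPM. Nuclear genes of oxidative phosphorylation were lower in 53 of 74 (median -0.040, between -0.055 and -0.0045 over the alternatives), and Cox6a2, a muscle-type subunit that some interneurons express, averaged 1.503 ± 0.370 and 2.54 ± 0.749 CPM (-0.75, SE 0.29, edgeR p 0.0164, adjusted p 0.324). In cholesterol synthesis, 9 genes were higher and 11 lower. Cyp51, a demethylase of the pathway that overlaps Akap9, had 53.5, 49.2, 51.2, 49.1 and 57.6 CPM at 9 months and 58.3, 61.9 and 65.3 CPM at 4 months, without overlap (-0.25, SE 0.069, edgeR p 0.00168, adjusted p 0.188). Tnc, a matrix protein of progenitor niches, averaged 7.18 ± 2.14 and 10.96 ± 2.29 CPM (-0.62, SE 0.19, edgeR p 0.00307, adjusted p 0.216). Cdkn1a, a cell cycle inhibitor used as a sign of senescence, averaged 8.87 ± 3.11 and 12.6 ± 6.07 CPM, and the 10 senescence genes tested had a median of -0.024.

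Choroid plexus genes were higher at 9 months in all 19 tested, with a median of 0.38, but none had an unadjusted p under 0.05. Steap1, a metalloreductase of this list, averaged 7.82 ± 3.78 and 3.92 ± 3.02 CPM. With the score, which is made from these genes, in the model 7 were higher and 12 lower, with a median of -0.027. Leaving out the 5 libraries of low score (3 WT and 2 PS19) gave a median of 0.16, with 16 higher and 3 lower, 3 of the higher at an unadjusted p under 0.05. Leaving out replicate 3 of 9 months alone raised the median to 0.64, and the replicate block gave 0.75, each with 1 gene at an unadjusted p under 0.05. Of the red blood cell and T cell lists only 1 gene each was tested, Hbb-bs and Gzmk. Their levels were near 0, at 0 to 2.05 and 0.162 to 1.34 CPM over the 11 libraries. Of the other marker lists, the medians were 0.029 for ependyma, -0.10 for meningeal fibroblasts, 0.062 for endothelium, 0.023 for mural cells, -0.24 for thalamus, -0.024 for striatum, 0.068 for CA2 and CA3 neurons, -0.061 for interneurons and -0.27 for border macrophages. None of the ependymal, meningeal, endothelial, mural, thalamic and macrophage genes had an unadjusted p under 0.05. Medians were -0.13 for CA1 neurons, 0.078 for oligodendrocyte precursors, 0.010 for extracellular matrix, -0.037 for heat shock, 0.065 for the unfolded protein response and 0.029 for mitochondrially encoded genes. Over the alternatives the median changed sign for ependyma (-0.14 to 0.15), meningeal fibroblasts (-0.29 to 0.13), endothelium (-0.041 to 0.14), mural cells (-0.16 to 0.13) and striatum (-0.16 to 0.11). Without a change of sign it ranged from -0.42 to -0.060 for border macrophages, from -0.077 to -0.0069 for interneurons and from -0.19 to -0.038 for CA1. It ranged from 0.022 to 0.14 for CA2 and CA3 neurons and from 0.0061 to 0.075 for mitochondrially encoded genes. Also without such a change, it was -0.29 to -0.15 for thalamus, -0.22 to -0.083 for neocortex and 0.042 to 0.094 for oligodendrocyte precursors. It also changed sign for extracellular matrix, heat shock and the unfolded protein response, and for the lists of dentate granule neurons, cell proliferation, premyelinating cells, astrocytes, glucocorticoid targets, cholesterol synthesis, GABA receptors, V-ATPase and senescence.

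Single genes moved with the libraries too, and the value with all libraries follows in parentheses. Log2 fold changes that moved by over 1.5 times without the libraries of low choroid plexus score included 0.31 for Serpina3n (0.54), 0.23 for Mcm2 (0.44), -0.12 for Nr1d1 (-0.22), -0.23 for Bhlhe22 (-0.35), -0.23 for Stmn1 (-0.36), -0.22 for Cux2 (-0.43), -0.18 for Calb1 (-0.31) and 0.14 for Mt1 (0.25). Further values were 0.25 for Cflar (0.41), 1.56 for Lcn2 (2.75), -0.76 for Cdkn1a (-0.505), 0.42 for Krt2 (1.15) and 0.041 for Mbp (0.10). Of these only Cdkn1a moved away from 0, and its difference was -0.29 without replicate 5 of 4 months alone. With the score as a covariate instead, Serpina3n was at 0.54, Mcm2 at 0.43, Bhlhe22 at -0.34, Calb1 at -0.32 and Krt2 at 1.18. In that fit Mbp was at 0.11, Nr1d1 at -0.19, Stmn1 at -0.29 and Cux2 at -0.32. The libraries of low score include replicate 3 of 9 months. Without it alone Serpina3n was at 0.39, Mcm2 at 0.31, Calb1 at -0.17, Krt2 at 0.51 and Cux2 at -0.42. Leaving out the 3 libraries that stood apart gave 0.30 for Serpina3n (0.54), 0.17 for Gabrb1 (0.29), 0.40 for Pcdhb2 (0.73), 0.38 for Ptgs2 (1.84), -0.12 for B2m (-0.44), -0.63 for Ifit1 (-1.30), -0.58 for Isg15 (-0.98), -0.071 for Rps24 (-0.11) and -0.93 for Cdkn1a (-0.505). The replicate block gave 1.21 for Npas4 (2.499), 0.36 for Fos (1.56) and 0.80 for Fosb (2.06).

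**Figure D4:**
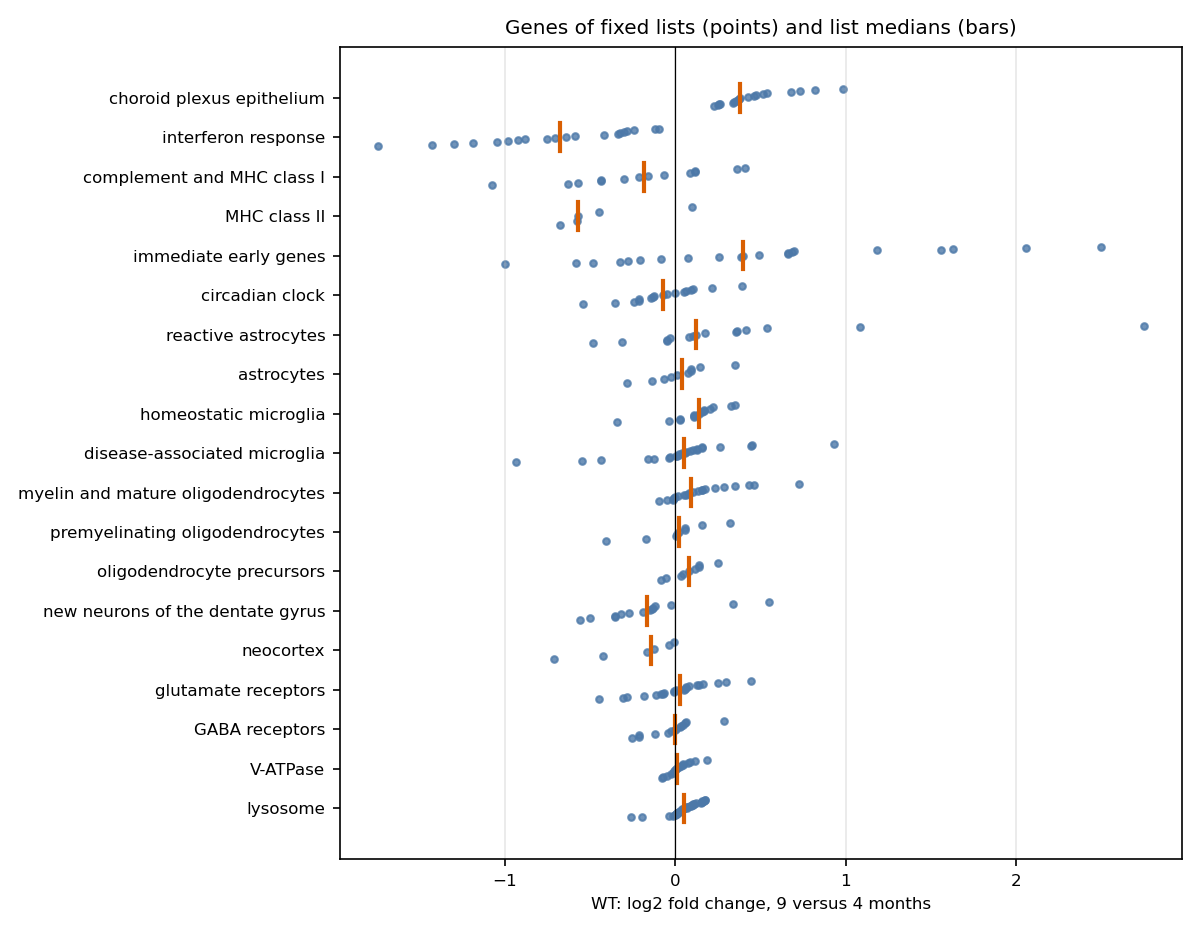
WT log2 fold change from 4 to 9 months for each tested gene of 19 lists (blue points, a linear axis) and the list median (orange bars). Choroid plexus genes all lie above 0 and interferon genes all below, while V-ATPase and lysosomal genes lie close to 0.

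PS19 animals of the same ages were compared in the same way, with other libraries but in the same fit. Both genotypes therefore share 1 estimate of each gene's spread, so a gene chosen for a small p in WT is more likely to have a small p in PS19 as well. In them 2788 of 16133 genes passed an edgeR adjusted p under 0.05 (17.3%), 1614 higher (10%) and 1174 lower (7.28%) at 9 months, and 872 genes (5.41%) differed between the age changes of PS19 and WT. Of the 24 WT genes with the smallest p, 22 had the same direction in PS19, against 9467 of all 16133 genes (58.7%), and 12 were called in PS19, all in the WT direction, 5 higher (Ehhadh, Cflar, Itpr2, Pcdhb9 and Plcl1) and 7 lower (S1pr1, Rap2a, Zcchc2, Tlnrd1, Ptcd1, Prrg3 and March9). Of the 76 DESeq2 calls in WT, 65 had the same direction in PS19 (85.5%) and 33 were called there (43.4%), all in the WT direction. Over all genes, 1862 of the 2788 PS19 calls had the WT direction. The labels give no batch for PS19 either, so age and a batch shared by both genotypes cannot be told apart. Choroid plexus content differed with age in PS19 too. Replicates 1 and 5 of 4 months scored 1.08 and 0.92, and the libraries of 9 months 5.65 to 5.93. With the score in the model 2153 genes passed in PS19 and 922 for the difference between the age changes. The part of choroid plexus in the directions shared with WT was not tested. Ehhadh differed by 0.73 (SE 0.14, edgeR adjusted p 0.000655) in PS19, and Itpr2 by 0.499 (SE 0.065, edgeR adjusted p 8.69e-06). Peak1 and Mex3b had PS19 differences of -0.012 (SE 0.074, edgeR adjusted p 0.933) and -0.050 (SE 0.13, edgeR adjusted p 0.836). Their age changes differed between the genotypes by -0.36 (edgeR adjusted p 0.0391) and -0.62 (edgeR adjusted p 0.0382). They were the 2 of the 24 genes called for this difference, against 5.41% of all genes. The 24 were chosen on WT values that enter the difference too, so it is a description. Without the 3 libraries that stood apart, the WT differences of 0.35 and 0.57 were 0.23 and 0.40.

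**Figure D5:**
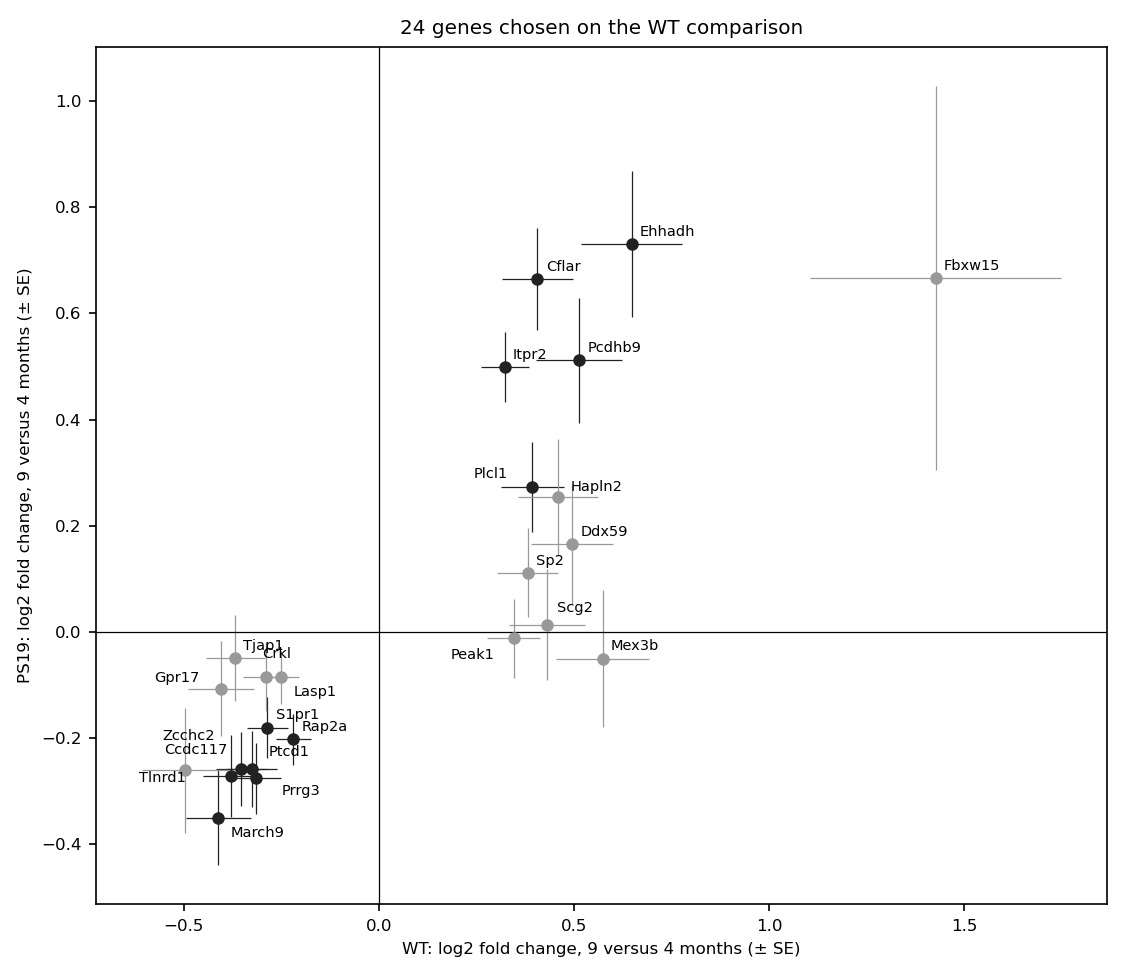
Log2 fold change from 4 to 9 months of 24 genes chosen on the WT comparison, in WT (x axis) and in PS19 (y axis), each with its SE as bars. Dark points passed an edgeR adjusted p under 0.05 in PS19 (12 of 24), and 22 lie on the same side of 0 in both.

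At an edgeR adjusted p under 0.05 in PS19, where 7.28% of all genes were lower and 10% higher at 9 months, 4 of 17 clock genes, 7 of 14 new neuron genes and 3 of 21 immediate early genes were lower and none of these lists had a member called higher. By the same rule 14 of 15 reactive astrocyte genes and 19 of 20 interferon genes were higher and none lower. Per1 differed by -0.67 (SE 0.16, edgeR adjusted p 0.00482), Nr4a3 by -0.64 (SE 0.12, edgeR adjusted p 0.000629), Klf2 by -1.20 (SE 0.32, edgeR adjusted p 0.0115), Tsc22d3 by -0.69 (SE 0.17, edgeR adjusted p 0.00747) and Ccnd2 by -0.35 (SE 0.091, edgeR adjusted p 0.00915). Log2 differences were -0.32 (SE 0.076, edgeR adjusted p 0.00461) for Grin3a and -0.81 (SE 0.20, edgeR adjusted p 0.00854) for Tnc. Dcx had a PS19 difference of -0.32 (SE 0.088, edgeR adjusted p 0.0136), and the difference of its age change from WT was -0.30 (edgeR adjusted p 0.172). Gfap averaged 2933 ± 306 CPM at 9 months and 464 ± 102 CPM at 4 months in PS19, a rise of 2.66 (SE 0.12, edgeR adjusted p 8.48e-13), and the rise was larger than the WT difference by 2.25 (edgeR adjusted p 1.11e-08). Ifit1 averaged 13.1 ± 15.3 CPM at 9 months and 2.22 ± 0.875 CPM at 4 months in PS19 (2.58, SE 0.56, edgeR adjusted p 0.00237), opposite to WT and ranging from 3.87 to 36.1 CPM among the 4 libraries of 9 months, and the age changes differed by 3.88 (edgeR adjusted p 0.00404). Gja1 was higher with age in PS19 and lower in WT, a difference of 0.26 (edgeR adjusted p 0.0173), although the PS19 change alone did not pass (0.13, SE 0.047, edgeR adjusted p 0.0671).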

How the data were processed

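Members and gene lists were chosen with earlier results of these data known. The authors deposited raw gene counts per library. RNA was extracted with a column kit and libraries were made with the SMARTER mRNA-seq kit, per the labels' protocols. Counting used featureCounts 2.0.0 on paired reads over exons by gene, without strand, on mm10, per the file header of 1 bulk library. Cutadapt, STAR, featureCounts and DESeq2 are named in the submitters' processing notes, without roles.

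All 21 bulk libraries entered 1 edgeR quasi-likelihood fit (edgeR 4.0.16, R 4.3.3) with 4 groups of genotype and age, TMM normalization, filterByExpr and Benjamini-Hochberg adjustment at 0.05, which left 16133 of 32285 genes. SE belongs to the fitted log2 fold change. CPM are counts per 1000000 of the TMM-scaled library total. A second fit added the choroid plexus score (prior count 2). Named genes were the 12 with the smallest p in each direction at a mean CPM of at least 1 and up to 4 genes of each of 43 lists. Others were chosen after their values were seen. Symbols and coordinates are from GENCODE M21 (mm10), which held 32235 IDs. Genes whose exons overlap another gene are uncertain, since counting ignored strand. Alternatives were DESeq2 1.42.0, DESeq2's size factors in edgeR, other filters, Ttr as the covariate, a replicate block, a surrogate variable (sva 3.50.0), WT libraries alone and libraries left out. The fit was also run on simulated counts, whose result is not given here. No 2 libraries of a group differed by as little as sampling noise (chi-square per gene 4.02 to 24.5).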

Additional observations from a re-analysis of the deposited data

Results flagged for a closer look

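Within each age, a library was marked where its gap to the nearest other library took most of the range of that age (Dixon's 95% limit). Of 190 groups of values over 93 genes, 35 were marked, and chance marks about 1 in 20. The genes checked are those named in the text, some of them chosen for a library that stands apart. Replicate 1 of 4 months held 19.1 CPM of Pcdhgc4. In replicate 2 of 4 months the marked values were 3.77 CPM of Chat and 4.52 CPM of Pcdhga2. Marked values of replicate 3 of 4 months were 7.83 CPM of Gh and 2.61 CPM of Prl. For replicate 4 of 4 months they were 139.9 CPM of B2m, 126 CPM of C4b, 16.7 CPM of Gbp3, 66.3 CPM of H2-K1, 7.15 CPM of Ifi44, 4.06 CPM of Isg15 and 7.39 CPM of Usp18. Replicate 6 of 4 months held 4.78 CPM of Pcdhb2, 49.9 CPM of Plcl1, 118 CPM of Rap2a and 56.2 CPM of Sox9. In replicate 1 of 9 months the marked values were 76.3 CPM of Gh, 21.04 CPM of Pomc and 45.9 CPM of Prl. Marked values of replicate 3 of 9 months were 38.6 CPM of Krt2, 58.6 CPM of Sox11, 1.204 CPM of Steap1 and 608 CPM of Ttr. For replicate 4 of 9 months they were 27.8 CPM of Dcx and 0.976 CPM of Klk6. Replicate 5 of 9 months held 556 CPM of Fos, 403 CPM of Fosb, 0.573 CPM of Isg15, 35.1 CPM of Mex3b, 519.6 CPM of Npas4, 16.4 CPM of Pcdhga2, 111 CPM of Per1, 308 CPM of Ptgs2 and 58.5 CPM of Sox9. The choroid plexus score of 3.29 in replicate 3 of 9 months was marked too.

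The age change differed between PS19 and WT for 24 of these 93 genes, at an edgeR adjusted p under 0.05 for the difference itself. Over all genes it did so for 872 of 16133 (5.41%). Many of the 93 were chosen on WT values, which enter the difference, so the count is a description. Some WT values rest on a marked library. Without replicate 4 of 4 months the WT difference was -0.95 for Ifi44 and -0.18 for H2-K1. Without replicate 3 of 9 months that of Krt2 was 0.51 (1.15 with all libraries). On the log2 scale, PS19 minus WT, the difference was 4.93 for Cd74, 4.77 for Ifi44, 4.14 for Usp18, 3.88 for Ifit1 and 3.51 for Isg15. It was 3.08 for Nlrc5, 3.01 for Gbp3, 2.46 for C4b, 2.35 for H2-K1 and 2.26 for B2m. Smaller positive differences were 2.25 for Gfap, 2.12 for Serpina3n, 2.08 for Klk6, 1.81 for Gpnmb, 1.78 for Cdkn1a, 1.07 for Lgals3, 0.84 for P2ry13, 0.68 for Mt1, 0.26 for Gja1 and 0.26 for Rps24. Negative differences were -0.36 for Peak1, -0.42 for Cyp51, -0.62 for Mex3b and -1.87 for Krt2.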

How the results depend on the processing

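No gene passed an adjusted p under 0.05 in edgeR for WT at 9 against 4 months, and leaving out 1 library at a time gave 0 to 20 genes, the 20 without replicate 6 of 4 months. DESeq2 called 76 genes and the replicate block 13 (6 higher, 7 lower). With the choroid plexus score in the model DESeq2 called 101, the replicate block 46, no filter on low counts 1, and leaving out the libraries of low score 1, while leaving out 1 library gave 0 to 15, the 15 again without replicate 6 of 4 months. Leaving out 1 library gave 1749 to 3014 genes in PS19 and 514 to 963 for the difference between genotypes, both lowest without replicate 5 of PS19 at 9 months. Deviations of same-numbered libraries correlated at -0.042, 0.028, 0.23, 0.11 and 0.0060. These values cannot show whether libraries of the same number shared a day or batch, since other differences between libraries enter them. Only replicate 3 of 9 months correlated best with its own number. Log2 fold changes that changed sign were those of Ttr (-0.040 with WT libraries and 1 surrogate variable, -0.18 with the score), and of Dcx and Sox11 (0.055 and -0.26 without the libraries of low score). Dcx was 0.0050 with the surrogate variable. Without the 3 libraries that stood apart, an alternative chosen after seeing the data, as was that on low score, values were -0.25 for Npas4, -1.17 for Fos, -1.12 for Fosb and -0.38 for Sox11. Leaving out 1 library moved the log2 fold change over -0.27 to 2.78 for Npas4, -1.05 to 1.85 for Fos, -0.59 to 2.34 for Fosb, -0.062 to 0.057 for Dcx, -0.27 to 0.500 for Sox11, -0.19 to 1.49 for Chat, -1.19 to 4.42 for Gh, -0.75 to 2.61 for Pomc. Apart from the effect of fewer libraries, the cause was not tested. Leaving out libraries over 500 CPM of Ttr gave no value, since no 9-month library was left. Genes at about 1 CPM or below, such as Timp1 and Lcn2, rest on few counts, and their fold changes are imprecise.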
